A study of Bos taurus with 18 samples.

Results

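The step from the 8-cell to the 16-cell stage of the bovine embryo was examined for the RNA that left the embryo and for where that RNA had come from. The comparison used 6 of the 18 libraries of a series running from the immature oocyte to the blastocyst, taken by their stage labels as 3 libraries of 8-cell and 3 of 16-cell embryos. It covered 17138 genes that had at least 1 read in at least 3 libraries, of 21668 genes in the table. Each gene was placed by its history before the 16-cell stage. Of the genes tested, 10607 were present in germinal vesicle (GV) oocytes and not raised at 8 cells, 952 were present in GV oocytes and raised at 8 cells, 522 were first raised at 8 cells, and 5057 met neither rule. Present in GV oocytes meant reads in all 3 GV libraries and a mean of at least 10 scaled counts there. ZNRF3 lay just inside this minimum at 10.001 scaled counts and EMP2 just outside it at 9.998. Raised at 8 cells meant called higher than in 4-cell embryos, as 1480 genes were (8.64% of those tested), and first raised meant raised at 8 cells, not present in GV oocytes and not called higher at any earlier step.

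The egg fills itself with messenger RNA while it grows, and the first cleavages run on this store while the embryo's own genome is almost silent. In cattle the main activation of the embryonic genome comes around the 8-cell stage. The stored transcripts are removed by shortening of their poly(A) tails and decay, in part by machinery the egg brings along and in part only after the embryo has begun to transcribe. Some of the first transcripts of the embryo are themselves made in a short burst and do not last.

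Each library was a pool of 10 oocytes or embryos. The GV oocytes were immature oocytes and the MII oocytes were matured in vitro, both of the German Simmental breed, from ovaries collected at an abattoir. All embryos (4-cell, 8-cell and 16-cell stages and blastocysts) were German Simmental x Brahman. They were fertilised in vitro with semen of a Zebu bull and cultured in the same medium and gas mixture. Breed and culture were thus the same at 8 and 16 cells but not in oocytes and embryos. No sample carried a genetic alteration or an added agent according to the labels, and the age of the ovary donors is not given there. Embryos were picked by eye and frozen as pools, and the labels do not say whether the pools of a stage came from separate rounds of culture. The p-values measure the spread between pools of a stage, taken over all 18 libraries, which may be technical in part. The RNA was amplified before sequencing, by a kit whose description names no strand marking, and reads of overlapping genes on opposite strands cannot be assigned to one of them.

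Values below are scaled counts, the reads of a gene divided by the size factor of its library. They measure a share of the library and give no amount per embryo. In whole embryos, fewer cells of a type and less RNA per cell cannot be told apart. Levels are listed for replicates 1, 2 and 3 in that order or as mean ± SD (n = 3 pools), and differences are means of the deposited log2-like values at 16 cells minus those at 8 cells ± SE. The difference of a gene at 0 reads in all libraries of one stage depends on the value that the scale gives to 0 reads, so the levels and the adjusted p alone are given for such genes. A gene was called where limma gave an adjusted p under 0.05 over all genes tested.

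The 8-cell libraries held 9954859, 10062355 and 5206082 reads assigned to genes and the 16-cell libraries 7456788, 2438473 and 3763632. One read was worth 0.763 to 1.41 scaled counts at 8 cells and 1.20 to 3.02 at 16 cells. Fewer genes had reads in 8-cell replicate 2 (12393) and 16-cell replicate 1 (11970) than in the other libraries of their stages (14081 to 14618 and 12903 to 14146). Array weights of limma, which lower the share of variable libraries in a fit, were 0.304 and 0.310 for these libraries. They were 1.42 and 0.566 for 8-cell replicates 1 and 3 and 0.545 and 0.502 for 16-cell replicates 2 and 3. In oocyte and 4-cell libraries they were 1.06 to 3.37. The main fit takes the spread of a gene from all 6 stages together. Whether this understates the spread at 8 and 16 cells was not tested. Counts of calls are also given without 8-cell replicate 2, 16-cell replicate 1 or both where that moves a count by more than 1.5 times. Markers of the oocyte and of genome activation followed the labels at the stages given here. The oocyte gene BMP15 was at 14872 ± 609.5 in GV oocytes and 47.4 ± 44.3 in blastocysts. KLF17, a gene of genome activation, was at 6.48 ± 5.77 in 4-cell and 9055 ± 1795 in 8-cell embryos. These values do not tell 8-cell from 16-cell embryos, and KLF17 overlapped between those stages.

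From 8 to 16 cells, 2800 genes were lower (16.3% of those tested) and 2537 were higher (14.8%). A fit to the 6 libraries of these stages alone, which takes the spread from them only, called 1313 lower and 1198 higher. Most of the lower genes were among those the oocyte already held. Of the 11559 genes present in GV oocytes, a grouping that uses no embryo library, 2554 were lower (22.1%) and 2005 higher (17.3%). Of the 5579 genes not present there, 246 were lower (4.41%) and 532 higher (9.54%). The median level of these at 8 cells was 2.34 scaled counts, against 172 for genes present in GV oocytes. Many of them thus had few reads to lose, and the shares of lower genes are not on an equal footing. All 3 libraries at 16 cells lay below all 3 at 8 cells for 2773 genes (16.2%) and above them for 2632 (15.4%). The median difference of the genes present in GV oocytes was -0.14.

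Loss was most frequent among the most abundant maternal transcripts. The genes present in GV oocytes were ordered by their GV level and divided into 4 groups of 2889 or 2890 genes. In the lowest group, with GV means up to 57.0 scaled counts, 252 genes were lower at 16 cells (8.72%) and 446 higher (15.4%). In the next group, up to 188.5, 444 were lower (15.4%) and 584 higher (20.2%). Between 188.5 and 576 scaled counts 690 were lower (23.9%) and 547 higher (18.9%). In the highest group, from 576 to 40905, 1168 genes were lower (40.4%) and 428 higher (14.8%). The share of higher genes was largest in the second group. A change is easier to detect in a gene with more reads, and the part of this in the pattern was not tested. Of the 100 genes with the highest GV means, 64 were lower at 16 cells, 4 higher and 32 not called, with a median difference of -1.51.

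By history, the groups behaved as follows. Among the 10607 genes present in GV oocytes and not raised at 8 cells, 2502 were lower (23.6%) and 1691 higher (15.9%), with a median difference of -0.26. Of the lower ones, 1639 differed by at least 4-fold and 196 by at least 16-fold on the scale of the deposited values, and 144 had 0 reads in all 3 16-cell libraries. Among the 522 genes first raised at 8 cells, 140 were lower (26.8%) and 53 higher (10.2%), with a median difference of -0.38. Of these 140, 128 differed by at least 4-fold and 27 by at least 16-fold, and 46 had 0 reads in all 3 16-cell libraries. The 952 genes that the oocyte held and the embryo then raised went the other way, with 52 lower (5.46%), 314 higher (33.0%) and a median difference of 0.78. Of the 5057 remaining genes 106 were lower (2.10%) and 479 higher (9.47%). The rules for both raised groups use the same 8-cell libraries as the comparison, so their counts are descriptions. A group with at most 1 scaled count in GV, MII and 4-cell libraries, which uses no 8-cell library, had 85 lower (4.86%) and 198 higher (11.3%) of 1749 genes. Its median level at 8 cells was 0.937 scaled counts, so many of its genes had few reads to lose.

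**Figure D1:**
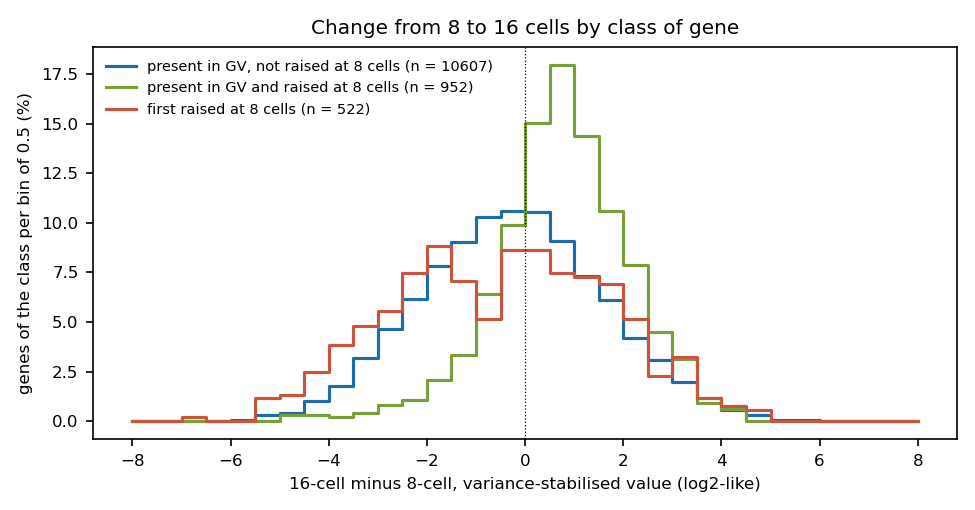
Distribution of the difference from 8 to 16 cells (16-cell minus 8-cell mean of the deposited log2-like values, x axis) for the genes of 3 histories, as percent of the genes of the group per bin of 0.5 (y axis). The line of the 952 genes present in GV oocytes and raised at 8 cells lies mostly to the right of 0, with a median of 0.78 and a lower quartile of 0.017. The medians of the other two groups drawn are -0.26 and -0.38, and the genes first raised at 8 cells have the heaviest lower tail.

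In shares of reads, genes present in GV oocytes and not raised at 8 cells gave way to both kinds of raised gene. The genes present in GV oocytes and not raised at 8 cells took 94.3% to 95.9% of reads in the oocyte and 4-cell libraries. Their share was 79.2%, 85.9% and 74.7% in the 8-cell libraries and 65.1%, 67.9% and 67.5% in the 16-cell libraries, with no overlap between the stages. The 2502 lower genes among them took 38.3%, 47.3% and 31.5% of reads at 8 cells and 10.7%, 11.8% and 9.40% at 16 cells. The others among them, which include all 1691 genes called higher, went from 40.9%, 38.6% and 43.2% to 54.4%, 56.2% and 58.1%. The genes were split by their call in this same comparison, so both of these courses follow in part from the split. The genes present in GV oocytes and raised at 8 cells went from 17.4%, 11.9% and 21.2% to 30.5%, 27.2% and 27.2%. The genes first raised at 8 cells took at most 0.0219% of reads before that stage, then 2.79%, 1.76% and 3.28%, and 3.45%, 3.30% and 3.44% at 16 cells. The 140 that were called lower, and so were chosen by their fall, held 0.605% ± 0.055 of reads at 8 cells and 0.0616% ± 0.020 at 16 cells. Replicate 2 of the 8-cell stage had the highest maternal share and the lowest shares of raised genes of its stage.

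**Figure D2:**
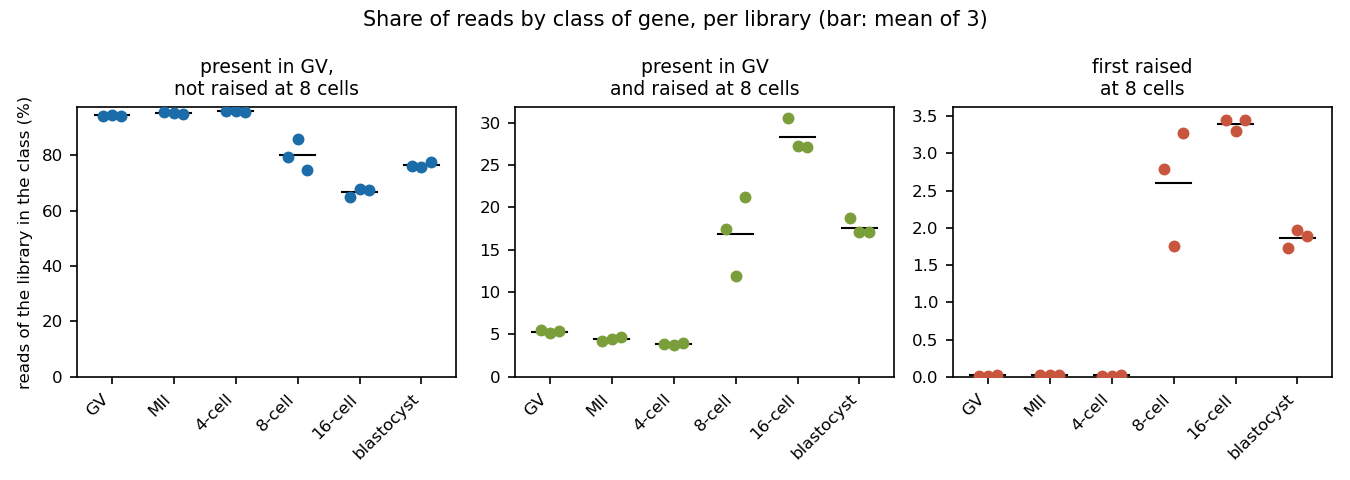
Share of the reads of each library (y axis, percent) that fell in genes of each history, by stage (x axis), with 1 point per library and a bar at the mean of the 3 libraries. The maternal share on the left drops from 74.7% to 85.9% at 8 cells to 65.1% to 67.9% at 16 cells, while genes that the oocyte held and the embryo raised climb to 27.2% to 30.5%.

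The 2502 maternal genes that were lower at 16 cells were chosen by their 8-cell and 16-cell levels, so their course up to 16 cells is a description. Relative to GV oocytes their median level was 110% in MII oocytes, 114% in 4-cell embryos and 101% in 8-cell embryos, where the interquartile range was 62.3% to 150%. At 16 cells it was 18.9%, with an interquartile range of 7.86% to 35.7%, and in blastocysts 21.4%, with a range of 4.76% to 53.4%. The 8105 other genes of the same history had medians of 94.2%, 89.0%, 74.0%, 100% and 109% at these stages. Calls at earlier steps stood as follows. In MII against GV oocytes 2 were lower and 3 higher, beside 105 (0.613%) and 17 (0.0992%) of all genes tested. In 4-cell embryos 5 were lower and 1 higher against MII oocytes, beside 125 (0.729%) and 11 (0.0642%). Against GV oocytes 12 were lower and 19 higher at 4 cells, beside 463 (2.7%) and 68 (0.397%). At 8 cells 193 (7.71%) were lower and 105 (4.20%) higher than in GV oocytes, beside 1628 (9.5%) and 1620 (9.45%) of all genes. Of all genes present in GV oocytes and not raised at 8 cells the shares were 14.6% and 3.85%. Against 4-cell embryos 113 of the 2502 genes (4.52%) were lower at 8 cells, beside 708 (4.13%) of all genes and 6.34% of the genes of the same history. The comparison of 8-cell with 4-cell embryos shares the 8-cell libraries with that of 16-cell with 8-cell embryos, and the comparison of blastocysts with 16-cell embryos shares the 16-cell libraries.

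What was lost at 16 cells did not all stay lost. Against GV oocytes, libraries that the 16-cell comparison does not use, 1684 of the 2502 genes were lower in blastocysts (67.3%) and 74 higher (2.96%). Of all genes present in GV oocytes and not raised at 8 cells, 31.3% were lower there and 16.9% higher. Over all genes tested, which include genes not present in GV oocytes, 3490 were lower (20.4%) and 4383 higher (25.6%). Blastocysts held less than 10% of the GV level for 867 of the 2502 genes, 10% to 50% for 963, 50% to 100% for 364 and at least the GV level for 308. From 16 cells to the blastocyst 548 of the 2502 genes were called lower again and 649 higher, against 2250 (13.1%) and 3117 (18.2%) of all genes tested. Blastocysts had 0 reads in all 3 libraries for 131 of them.

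**Figure D3:**
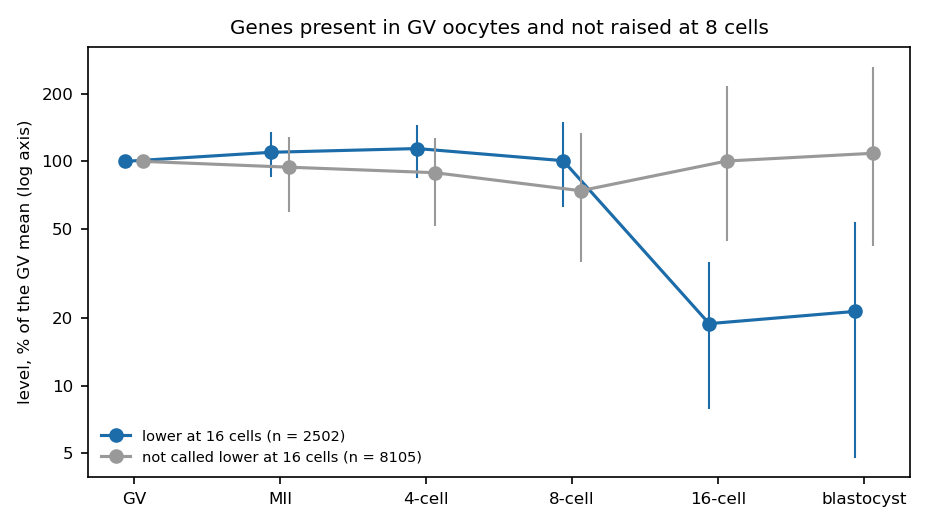
Median level of genes present in GV oocytes and not raised at 8 cells, as percent of their GV mean (log y axis), by stage (x axis), for the 2502 genes called lower at 16 cells and the 8105 others, with bars from the lower to the upper quartile over genes. The lower genes stand at 101% to 114% up to 8 cells and at 18.9% at 16 cells and 21.4% in blastocysts, while the others lie between 74.0% and 109%. The groups were split by the call at 16 cells, so the fall there follows from the choice of genes.

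Among maternal genes with at least 50 scaled counts at 8 cells and a symbol, the largest falls were in genes that ended near 0 reads. LMOD3, an actin nucleator known from muscle, had 264, 67.9 and 167 at 8 cells and 0 in each at 16 cells. MYOZ1, a protein of the muscle Z-disc, had 134, 332 and 57.6 at 8 cells and 0 in each at 16 cells. ZBTB16, a zinc finger transcription repressor, had 133, 118 and 84.3 at 8 cells and 0 in each at 16 cells. The stages were apart in each of these genes, as the rule for naming them required, with adjusted p of 8.5e-06, 2.6e-06 and 3.4e-05. CCDC65, a component of the axonemal dynein regulatory complex, had 242, 190.5 and 159 at 8 cells and 3.61, 0 and 0 at 16 cells (difference -5.87 ± 0.72, adjusted p = 1.1e-05). GGCT, an enzyme of glutathione breakdown, had 1457, 2744 and 925 at 8 cells and 4.81, 199.5 and 9.94 at 16 cells (-5.72 ± 0.74, adjusted p = 1.6e-05). In GGCT the 16-cell libraries themselves lay far apart, although all stayed below the lowest 8-cell library, as the same rule required. PLEKHM3 had 299, 800.4 and 68.9 at 8 cells and 0, 0 and 11.9 at 16 cells (-5.90 ± 0.95, adjusted p = 0.00012). TNIP3 is listed by a locus number and named for its interaction with the inhibitor of NF-kB signalling TNFAIP3. It had 290.1, 285 and 21.1 at 8 cells and 0 in each at 16 cells. In blastocysts MYOZ1 was at 65.2 ± 10.9 against 143 ± 11.6 in GV oocytes, while CCDC65 was at 14.8 against 948 ± 153.

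Several abundant messages of the oocyte, picked among those that were lower, fell by 3-fold to 14-fold. The genes of this paragraph were chosen for their level after their values were seen. WAC, an adaptor in histone H2B ubiquitination and the most abundant gene of GV oocytes here, had 94329, 83939 and 62991 at 8 cells and 33947, 20850.5 and 19773 at 16 cells (difference -1.72 ± 0.24, adjusted p = 3.7e-05). The libraries of both stages were apart, as they were for every gene of this paragraph. KPNA7, the importin alpha of oocytes, had 31424, 45913 and 26309.5 at 8 cells and 4484, 3310.3 and 1289.7 at 16 cells, 11.4-fold lower on the means (-3.65 ± 0.34, adjusted p = 9e-07). RRAS2, a small GTPase of the RAS family, had 14609, 21991 and 10228 at 8 cells and 1539, 1258 and 610.1 at 16 cells, a drop of 13.7-fold. TOP2B, a DNA topoisomerase, had 12878, 15128 and 8675 at 8 cells and 1611, 1672 and 741 at 16 cells, or 9.12-fold lower. RIOK3, an atypical protein kinase, fell 8.24-fold from 21711 ± 6809.7 to 2636 ± 397. ANKRD17 fell 3.13-fold from 31644 ± 4547 to 10118 ± 2143. HMGN2, a nucleosome-binding protein, went from 11868 ± 4041 to 3029.8 ± 1003. Their courses then parted: WAC and RIOK3 were lower again in blastocysts, at 4981 ± 715 and 767 ± 131, while RRAS2 at 1606 ± 398 and TOP2B at 2103 ± 293 were not called against 16 cells.

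Of 35 tested genes known from oocytes or for a maternal effect, 28 were lower (80%, beside 16.3% of all genes), 2 higher (5.71%, beside 14.8%) and 5 not called. Their median difference was -2.50 against 0 for all genes tested. Without 8-cell replicate 2 and 16-cell replicate 1, 21 were lower and 1 higher. The growth factor BMP15, which the oocyte secretes to its follicle, had 21905, 33674 and 19280.3 at 8 cells and 5528, 6720.4 and 2603 at 16 cells (difference -2.40 ± 0.41, adjusted p = 0.0002). Its partner GDF9 had 3241, 5059 and 2179.6 at 8 cells and 795, 359.8 and 276 at 16 cells (-2.93 ± 0.51, adjusted p = 0.00025). Both were below every 8-cell library in every 16-cell library. Of the zona pellucida genes, which build the coat of the egg, ZP2 had 12473, 20941 and 9779 at 8 cells and 5054, 3616 and 1767 at 16 cells. ZP4 had 1149.6, 2728 and 1636 at 8 cells and 816, 420.2 and 187 at 16 cells, and both fell. ZP3 had 345, 661 and 524 at 8 cells and 331, 472 and 51.7 at 16 cells with overlapping libraries and no call (adjusted p = 0.094). In GV oocytes ZP3 had 12188 ± 5779, against 509.9 ± 158 at 8 cells, and ZP2 had 33353 ± 9764, against 14398 ± 5825.

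Not all partners in one complex were called. NLRP5 of the subcortical maternal complex had 789, 988 and 549 at 8 cells and 4.81, 339 and 177 at 16 cells (difference -3.21 ± 0.88, adjusted p = 0.0083). Its relative NLRP9 had 5864, 6456 and 4249.5 at 8 cells and 808, 1581 and 423 at 16 cells (-2.73 ± 0.35, adjusted p = 1.6e-05). KHDC3L, TLE6 and PADI6, partners of NLRP5 in that complex, were also called lower, PADI6 with overlapping libraries. A further partner, OOEP, was not called (-0.02 ± 0.67, adjusted p = 1). ZAR1, a regulator of stored messages, had 203, 409 and 82.9 at 8 cells and 15.6, 0 and 3.97 at 16 cells and fell 35.4-fold on the means (-4.78 ± 0.67, adjusted p = 3.1e-05). DPPA3, which guards DNA methylation in the mouse zygote, had 31378, 41993 and 17212 at 8 cells and 7039, 4852 and 3176 at 16 cells (-2.57 ± 0.37, adjusted p = 3.9e-05). NPM2, a histone chaperone of the egg, had 390.1, 189.7 and 148 at 8 cells and 0, 0 and 21.9 at 16 cells (-5.46 ± 0.80, adjusted p = 5.2e-05). The oocyte linker histone H1FOO had 2655, 3651 and 2071 at 8 cells and 232, 326 and 97.4 at 16 cells (-3.77 ± 0.48, adjusted p = 1.5e-05). OOSP1, an oocyte-secreted protein, had 6656, 10669 and 2660.2 at 8 cells and 906, 749.7 and 215 at 16 cells. ACCSL had 4552, 8114 and 4303 at 8 cells and 830.1, 1239 and 368 at 16 cells. Transcription factors of the ovarian oocyte were among the falls, with LHX8 at 1397, 793 and 763 at 8 cells and 65.0, 342 and 65.6 at 16 cells. The germ cell RNA-binding gene DAZL had 1704, 1789.7 and 1887 at 8 cells and 972, 272 and 258 at 16 cells. NLRP5 was not called without both 8-cell replicate 2 and 16-cell replicate 1 (adjusted p = 0.1). KHDC3L was not called without 8-cell replicate 2 (adjusted p = 0.054). TLE6 was not called without 8-cell replicate 3 or without 16-cell replicate 1 (adjusted p up to 0.1). PADI6 was not called without 8-cell replicate 3 or without 16-cell replicate 1 or 3 (adjusted p up to 0.15). Fitted to the 6 libraries alone, limma did not call KHDC3L, TLE6 or PADI6 (adjusted p = 0.099, 0.17 and 0.16).

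Against this direction, UCHL1, a ubiquitin hydrolase of germ cells and neurons, had 12.2, 61.3 and 57.6 at 8 cells and 168, 719.5 and 998 at 16 cells (difference 3.62 ± 0.59, adjusted p = 0.00014). It had been called lower at 8 than at 4 cells (adjusted p = 2e-05), after 2755 ± 571 in GV oocytes and 952 ± 473 at 4 cells. SOHLH1, a transcription factor of early oocytes, had 3.82, 0 and 1.41 at 8 cells and 36.1, 87.7 and 5.96 at 16 cells. SOHLH1 was not called without 8-cell replicate 2 or without 16-cell replicate 1 or 2 (adjusted p up to 0.11). Nor was SOHLH1 called in a limma fit to the 6 libraries alone (adjusted p = 0.11). The genes not called were ZP3, FIGLA, NOBOX, OOEP and DDX4.

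**Figure D4:**
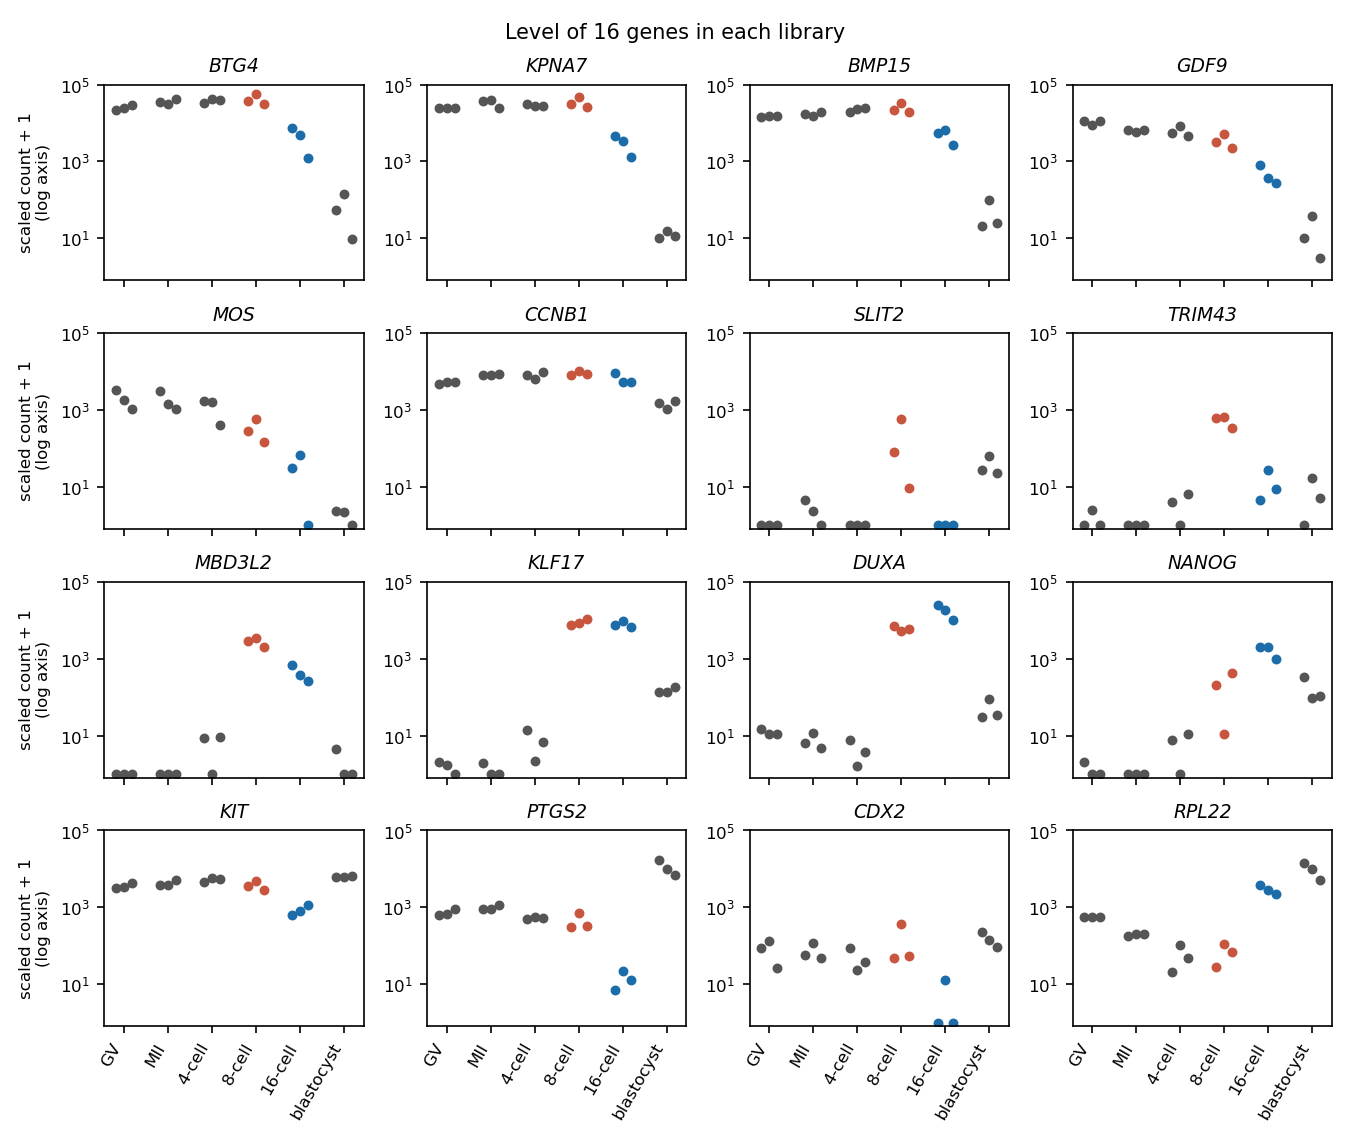
Level of 16 genes in each library, as scaled count + 1 (log y axis), by stage (x axis), with 1 point per library and the 8-cell and 16-cell libraries in colour. BTG4, KPNA7, BMP15, GDF9 and MOS drop from 8 to 16 cells without overlap, SLIT2, TRIM43 and MBD3L2 are highest at 8 cells, the stages overlap for KLF17, and KIT, PTGS2 and CDX2 drop at 16 cells and are high in blastocysts.

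Of 62 tested genes of messenger RNA decay and poly(A) control 18 were lower (29.0%, beside 16.3% of all genes), 10 higher (16.1%, beside 14.8%) and 34 not called. Their median difference was -0.15, and the upward count was 6 without 8-cell replicate 2 and 5 without this library and 16-cell replicate 1. BTG4, the adaptor that brings the CCR4-NOT deadenylase to maternal messages in the mouse, had 36137, 58008 and 30584 at 8 cells and 7236, 4925 and 1250.0 at 16 cells, 9.30-fold lower on the means (difference -3.49 ± 0.61, adjusted p = 0.00026). All 16-cell libraries were below all 8-cell libraries. CNOT6L, the deadenylase subunit of this complex linked to the mouse egg, had 5083, 7296 and 5236 at 8 cells and 1340.2, 1004 and 1934 at 16 cells (-2.07 ± 0.30, adjusted p = 4.4e-05). The deadenylase subunits CNOT7 and CNOT8 went from 5066 ± 1831 to 2434 ± 552 and from 762 ± 174 to 365 ± 149.6. PARN, a poly(A)-specific ribonuclease, had 739.7, 1208 and 475 at 8 cells and 148, 148 and 161 at 16 cells (-2.27 ± 0.32, adjusted p = 3.6e-05). The scaffold of the same complex did not fall: CNOT1 had 6951, 4866 and 8673 at 8 cells and 18603, 14998 and 17245 at 16 cells and rose (difference 1.34 ± 0.23, adjusted p = 0.00025).

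Factors that bind stored messages went in both directions or were not called. CPEB1, which controls cytoplasmic polyadenylation, had 1164, 1531 and 1186 at 8 cells and 231, 593 and 75.5 at 16 cells (difference -2.52 ± 0.57, adjusted p = 0.002). The messenger-binding protein IGF2BP3 had 7123, 11261 and 6658 at 8 cells and 1758, 2186 and 813 at 16 cells (-2.47 ± 0.30, adjusted p = 1e-05). PAIP1, a partner of poly(A)-binding protein, had 6714, 9114 and 4879 at 8 cells and 1039, 686 and 586 at 16 cells (-3.15 ± 0.37, adjusted p = 7.8e-06). EIF4E1B, the cap-binding protein of oocytes, had 187, 267 and 78.7 at 8 cells and 81.8, 27.2 and 0 at 16 cells with overlapping libraries. The relatives CPEB2, CPEB3 and CPEB4 were not called, nor were LSM14A, LSM14B and DDX6, which hold messages in granules (differences from -0.78 to 0.57). PATL1, a partner of DDX6, was called higher (adjusted p = 0.00011). PABPC1, the general cytoplasmic poly(A)-binding protein, had 4050.3, 8897 and 7507 at 8 cells and 27363, 29983 and 23680.0 at 16 cells and rose (2.05 ± 0.29, adjusted p = 3.6e-05). PABPN1L, the oocyte form of nuclear poly(A)-binding protein, had 19.8, 13.9 and 5.62 at 8 cells and 0, 12.1 and 0 at 16 cells. YBX2, a germ cell protein that packs messages, had 1206, 1322 and 741 at 8 cells and 912, 698 and 229 at 16 cells. Both overlapped and were not called (adjusted p = 0.096 and 0.11). PABPN1L was called lower without 16-cell replicate 2 (adjusted p = 0.013) and YBX2 without 16-cell replicate 1 (0.034). CNOT7 was not called without 8-cell replicate 2 or without 16-cell replicate 2 (adjusted p up to 0.086). CNOT8 was not called without 8-cell replicate 2 or without 16-cell replicate 2 (adjusted p up to 0.061). EIF4E1B was not called without 8-cell replicate 2 or without 16-cell replicate 3 (adjusted p up to 0.075). Fitted to the 6 libraries alone, limma did not call CNOT7, CNOT8 or EIF4E1B (adjusted p = 0.077, 0.13 and 0.11).

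Regulators of meiosis and M phase split. Of 45 members 13 were lower (28.9%, beside 16.3% of all genes) and 8 higher (17.8%, beside 14.8%). Their median difference was -0.38, and 3 were higher without 8-cell replicate 2 and 2 without this library and 16-cell replicate 1. A fit to the 6 libraries alone called 7 lower and 1 higher. MOS, the kinase that holds the egg in meiosis, had 290.1, 571 and 150.4 at 8 cells and 30.1, 66.5 and 0 at 16 cells (difference -4.06 ± 0.90, adjusted p = 0.0019). WEE2, the oocyte kinase that inhibits CDK1, had 4317, 5828 and 2659 at 8 cells and 573, 1034 and 384 at 16 cells (-2.72 ± 0.38, adjusted p = 3.4e-05). CCNB3, a cyclin B of the germ line, had 9315, 16495 and 7217 at 8 cells and 1868, 1856 and 1596 at 16 cells (-2.55 ± 0.28, adjusted p = 4.1e-06). The stages did not overlap in any of these. AURKA, a spindle kinase used in meiosis and mitosis, had 36403, 55167 and 32822 at 8 cells and 12259, 9741 and 4843 at 16 cells, 4.63-fold lower. The mitotic cyclins were not called. CCNB1 had 8086, 10220.5 and 8735 at 8 cells and 9169.6, 5366 and 5435 at 16 cells. CCNB2 had 759.5, 1183 and 794 at 8 cells and 1177, 638 and 417 at 16 cells. Both overlapped between the stages (adjusted p = 0.16 and 0.4). CCNB1 was called lower without 16-cell replicate 1 (adjusted p = 0.033). CDC20, an activator of the anaphase-promoting complex, had 1353, 1392 and 2040.5 at 8 cells and 4946, 6693 and 2003 at 16 cells. The checkpoint kinase BUB1 had 1007, 1941 and 1209.9 at 8 cells and 2915, 2035 and 2671 at 16 cells. Both were called higher, CDC20 with overlapping libraries. CDC20 was not called without 8-cell replicate 1 or 2 or without 16-cell replicate 1 or 2 (adjusted p up to 0.11). BUB1 was not called without 8-cell replicate 1 (adjusted p = 0.085). Fitted to the 6 libraries alone, limma did not call CDC20 or BUB1 (adjusted p = 0.051 and 0.12).

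In the list of S phase and licensing genes 6 of 41 were lower and 6 higher (14.6% each, close to the shares over all genes), with a median difference of -0.51. ORC5L, a subunit of the origin recognition complex, had 5104, 6689 and 3536 at 8 cells and 552, 792 and 747 at 16 cells (difference -2.83 ± 0.29, adjusted p = 1.6e-06). RRM1, the large subunit of ribonucleotide reductase, had 255, 144 and 375 at 8 cells and 1718, 1663 and 1763 at 16 cells and rose (2.81 ± 0.36, adjusted p = 1.5e-05). DBF4, the activator of the kinase CDC7, had 681, 178 and 696 at 8 cells and 4072, 2044 and 2258 at 16 cells and also rose (2.58 ± 0.51, adjusted p = 0.00067). Within each of these genes the stages were apart.

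The genes first raised at 8 cells and lower at 16 cells were a small group with steep falls. The median level of the 140 genes was 55.8 scaled counts at 8 cells, 2.07 at 16 cells and 0.782 in blastocysts. Of them 59 had no symbol, against 124 of the 522 genes of this history. With 8-cell replicate 2 left out 221 genes of this history were lower (28.4%), and with 16-cell replicate 1 left out as well 228 (25.8%). TRIM43, a tripartite motif gene known in human embryos as a target of DUX4, had 627, 643 and 343 at 8 cells and 3.61, 27.2 and 7.95 at 16 cells, 41.6-fold lower on the means (difference -5.20 ± 0.86, adjusted p = 0.00015). Up to 4 cells its mean was at most 2.87, and in blastocysts it was 6.86 ± 8.54. SLIT2, a secreted guidance cue and ligand of ROBO receptors, had 79.4, 576 and 8.43 at 8 cells and 0 in each at 16 cells (adjusted p = 0.00032). Its 8-cell libraries differed by more than an order of magnitude, and it stood in blastocysts at 37.0 ± 21.9. SCTR, the secretin receptor, had 149, 1552 and 306 at 8 cells and 0, 21.2 and 71.5 at 16 cells (-4.68 ± 0.98, adjusted p = 0.0012). NCAN, a proteoglycan of the extracellular matrix, had 26.7, 128 and 40.8 at 8 cells and 0 in each at 16 cells. CCDC151, a factor of ciliary dynein arms, had 51.9, 93.2 and 11.2 at 8 cells and 0 in each at 16 cells. LRRC3 had 20.6, 994 and 156 at 8 cells and 2.41, 0 and 3.97 at 16 cells. FAM84A had 55.0, 105 and 28.1 at 8 cells and 0, 3.02 and 0 at 16 cells. In all 7 of these genes the highest 8-cell value was that of replicate 2, which stands apart.

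Other members of this group, chosen for their level after their values were seen, were higher to begin with. MBD3L2, a methyl-CpG-binding domain-like gene, had 2850.3, 3391 and 2035 at 8 cells and 676, 369 and 254 at 16 cells (difference -2.74 ± 0.80, adjusted p = 0.012). LOC616308, for which the tables used here give no symbol, had 5309.8, 3809.9 and 5072 at 8 cells and 769, 390.0 and 379.6 at 16 cells. LOC516616, likewise without one, had 4250.2, 2743 and 5731 at 8 cells and 326, 441 and 395 at 16 cells. Their 3 libraries of a stage lay close together and far from the other stage. ZNF41, a zinc finger gene listed by a locus number, had 1756, 1297 and 1116 at 8 cells and 742, 254 and 258 at 16 cells. ZNF41 was not called without 8-cell replicate 1 or 2 or without 16-cell replicate 2 or 3 (adjusted p up to 0.12). In blastocysts MBD3L2 was at 1.19 ± 2.06. MBD3L2 and TRIM43 belong to families with close copies, so reads may be shared between copies.

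Calls among transcription factors of genome activation were not far from the shares over all genes. Of 31 tested 3 were lower (9.68%, beside 16.3% of all genes), 6 higher (19.4%, beside 14.8%) and 22 not called. Their median difference was 0.12, or 0 with library medians set equal. The summed level of the list was 59685 to 83271 scaled counts in the 8-cell libraries, 89092 to 148692 in the 16-cell libraries and 18108 to 23325 in blastocysts. KLF17, a Krüppel-like factor of the activating embryo, had 7726, 8342 and 11097 at 8 cells and 7326, 9423 and 6586 at 16 cells, with overlapping libraries (difference -0.22 ± 0.54, adjusted p = 0.81). TFAP2C, a factor of the later trophoblast, had 4669, 3079.8 and 4755 at 8 cells and 8095, 5191 and 4503 at 16 cells (0.49 ± 0.54, adjusted p = 0.54). PNRC1, a nuclear receptor coactivator, had 31534, 19874 and 34355 at 8 cells and 58370.2, 42584 and 40081 at 16 cells without overlap but with no call (0.74 ± 0.43, adjusted p = 0.21). ZSCAN4, known for bursts in cleaving embryos and stem cells, had 2937, 3692 and 3286 at 8 cells and 2179, 886 and 568 at 16 cells, also without overlap and with no call (-1.67 ± 0.91, adjusted p = 0.18). It was called lower with voom (adjusted p = 0.011) and in a fit to the 6 libraries alone (0.028). DUXA, a double homeobox gene listed by a locus number, had 7026, 5156 and 6097 at 8 cells and 24392, 18471 and 9972 at 16 cells and was called higher (1.45 ± 0.54, adjusted p = 0.045). ARGFX, another homeobox gene of the early embryo, had 2160.2, 361 and 1466 at 8 cells and 14783, 8531 and 5465 at 16 cells (3.07 ± 0.84, adjusted p = 0.0086). TAF1D had 3369, 5196 and 3361 at 8 cells and 5599, 2434 and 4897 at 16 cells. KLF4 had 4771, 4944 and 5443 at 8 cells and 10892, 7948 and 5749 at 16 cells. NFYA had 564, 392 and 357 at 8 cells and 433, 571 and 244 at 16 cells, none of them called. The lower members were ZNF41, NFYC and PRDM1, PRDM1 with overlapping libraries. PRDM1 and NFYC were not called in a limma fit to the 6 libraries alone (adjusted p = 0.059 and 0.12). HSF2, a heat shock factor, had 125, 105 and 148 at 8 cells and 991, 638 and 813 at 16 cells and rose (2.64 ± 0.60, adjusted p = 0.0023), and YY1, KLF5 and KLF3 were called higher. Some of these calls rested on single libraries. DUXA was not called without 8-cell replicate 1, 2 or 3 or without 16-cell replicate 1 or 2 (adjusted p up to 0.16). ARGFX was not called without 8-cell replicate 2 (adjusted p = 0.06). NFYC was not called without 8-cell replicate 2 or without 16-cell replicate 1 (adjusted p up to 0.098). YY1 was not called without both 8-cell replicate 2 and 16-cell replicate 1 (adjusted p = 0.07). KLF5 was not called without 8-cell replicate 2 (adjusted p = 0.056). KLF3 was not called without 8-cell replicate 1 or 2 or without 16-cell replicate 1 or 3 (adjusted p up to 0.18). Without 8-cell replicate 2, 1 member was lower and 2 were higher, and without this library and 16-cell replicate 1, 1 was higher.

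A small group of genes that the oocyte held and the embryo raised was lower at 16 cells, 52 of 952. SIAH1, a ubiquitin ligase chosen for its level after its values were seen, had 24032, 19249 and 12941 at 8 cells and 5538, 3519 and 4620.3 at 16 cells (difference -2.02 ± 0.34, adjusted p = 0.0002). It had 2734 ± 375 at 4 cells and 493 ± 85.6 in blastocysts, so the 8-cell stage was its peak in these data. SLC30A3, a zinc transporter, had 159, 66.2 and 63.2 at 8 cells and 0, 0 and 1.99 at 16 cells. The homeobox gene HOXB4 had 38.2, 114 and 78.7 at 8 cells and 0, 0 and 1.99 at 16 cells. SHD, a gene with an SH2 domain, had 100.0, 137 and 111 at 8 cells and 0, 0 and 15.9 at 16 cells. CES8, a carboxylesterase, had 149.6, 96.5 and 21.1 at 8 cells and 0, 0 and 3.97 at 16 cells. TNFAIP8L1 had 483, 274 and 760.3 at 8 cells and 0, 121 and 69.6 at 16 cells. MGC148328 had 421, 625 and 520.0 at 8 cells and 8.42, 72.6 and 63.6 at 16 cells. TPBG, a surface glycoprotein named for the trophoblast, had 145, 717 and 359.7 at 8 cells and 80.6, 3.02 and 33.8 at 16 cells. In every one of these genes the stages were apart, which was a condition for naming all but SIAH1. Differences ran from -4.90 (SLC30A3, adjusted p = 0.00091) to -2.02 (SIAH1). TPBG was not called without 16-cell replicate 2 (adjusted p = 0.061).

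Some maternal transcripts that fell at 16 cells were called higher in blastocysts than at 16 cells. PTGS2, CDX2, GATA2 and KIT are given as examples. The first 3 are on the trophectoderm list, while KIT is on the list of oocyte genes. Blastocyst levels of TEAD1 and ATP1B1, also lower on the trophectoderm list, are not given here. PTGS2, the inducible prostaglandin synthase, had 305, 727 and 318 at 8 cells and 6.02, 21.2 and 11.9 at 16 cells, 34.5-fold lower (difference -4.70 ± 0.41, adjusted p = 5.7e-07), and 11426 ± 5418 in blastocysts (adjusted p = 4.1e-12 against 16 cells). CDX2, a trophectoderm transcription factor, had 45.8, 365 and 53.4 at 8 cells and 0, 12.1 and 0 at 16 cells (-4.54 ± 0.91, adjusted p = 0.00081), and 154 ± 68.2 in blastocysts (adjusted p = 0.00021). GATA2, another trophoblast factor, had 384, 525 and 361 at 8 cells and 124, 57.4 and 21.9 at 16 cells (-2.83 ± 0.44, adjusted p = 9.5e-05), and 1085 ± 132 in blastocysts (adjusted p = 4.3e-07). KIT, the receptor for stem cell factor, had 3590.0, 4878 and 2878 at 8 cells and 634, 813 and 1145 at 16 cells (-2.13 ± 0.26, adjusted p = 1.1e-05), and 6179 ± 244 in blastocysts (adjusted p = 6.6e-08). In GV oocytes these genes had 728 ± 142, 79.7 ± 52.0, 678 ± 141 and 3615 ± 491. Over the trophectoderm list 5 of 35 members were lower (CDX2, GATA2, PTGS2, TEAD1 and ATP1B1) and 8 higher. These were 14.3% and 22.9%, beside 16.3% and 14.8% of all genes. The median difference was 0.01 and turned to -0.12 with library medians set equal. The upward count was 5 without 8-cell replicate 2 and 16-cell replicate 1. In a limma fit to the 6 libraries alone TEAD1 and ATP1B1 were not called (adjusted p = 0.065 and 0.067). GATA3, a factor of the trophoblast, had 22.1, 157 and 160.2 at 8 cells and 2.41, 118 and 316 at 16 cells and was not called.

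Genes of the inner cell mass and hypoblast moved up more than down. Of 20 pluripotency genes 1 was lower (5%, beside 16.3% of all genes) and 7 higher (35%, beside 14.8%). Their median difference was 0.60, and 4 were higher without 8-cell replicate 2 and 16-cell replicate 1. The lower count was 2 without 8-cell replicate 2 alone. NANOG, a core pluripotency factor, had 207, 9.81 and 415 at 8 cells and 1978, 1989 and 969.8 at 16 cells (difference 3.87 ± 1.02, adjusted p = 0.0064). POU5F1 had 163, 216 and 194 at 8 cells and 461, 496 and 558 at 16 cells (1.39 ± 0.38, adjusted p = 0.0092). All 16-cell libraries lay above all 8-cell libraries in both genes, and NANOG was lowest in 8-cell replicate 2. The nuclear receptor ESRRB had 1.53, 1.64 and 68.9 at 8 cells and 295, 260.0 and 276 at 16 cells. LIN28B, which blocks let-7 maturation, had 0, 0 and 16.9 at 8 cells and 123, 60.5 and 73.5 at 16 cells. ZFP42 had 994, 408 and 949 at 8 cells and 4568, 2485 and 2802 at 16 cells. SOX2 had 87.0, 26.2 and 393 at 8 cells and 137, 157 and 149 at 16 cells with no call. The lower member was the zinc finger gene SALL1, at 387, 311 and 596 at 8 cells and 55.3, 81.6 and 252 at 16 cells. Of 14 hypoblast genes 2 were lower (14.3%) and 5 higher (35.7%), with a median difference of 1.67. GATA6, which marks primitive endoderm, had 149.6, 139 and 285 at 8 cells and 1412, 1197 and 2176 at 16 cells (3.06 ± 0.61, adjusted p = 0.00079). Among the lower members was LAMC1, a laminin chain. LAMC1 had 2179, 2015 and 2189 at 8 cells and 1072, 481 and 793 at 16 cells. NANOG was not called without both 8-cell replicate 2 and 16-cell replicate 1 (adjusted p = 0.09). ZFP42 was not called without 8-cell replicate 2 or without 16-cell replicate 1 (adjusted p up to 0.066). In a limma fit to the 6 libraries alone POU5F1 and SALL1 were not called (adjusted p = 0.08 and 0.069).

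Most genes for protein synthesis and energy supply on the lists were called higher. Of 78 cytosolic ribosomal proteins 73 were higher (93.6%, beside 14.8% of all genes) and 0 lower (beside 16.3%), with a median difference of 2.50. For them limma gave 0 lower also at an unadjusted p under 0.05, as did voom after adjustment. RPL22 of the large subunit had 27.5, 107 and 67.5 at 8 cells and 3709, 2815 and 2283 at 16 cells. RPL14 had 439, 313 and 438 at 8 cells and 5983, 4631 and 3871 at 16 cells. These genes have many processed copies in the genome, and how reads matching several places were counted is not given in the sources used here. Of 77 nuclear-encoded genes of oxidative phosphorylation 59 were higher (76.6%) and 1 lower (1.30%), with a median difference of 2.52. In a fit to the 6 libraries alone 36 of them were higher. ATP5B, the catalytic subunit of ATP synthase, had 975, 355 and 1911 at 8 cells and 12996, 11174 and 9106 at 16 cells (difference 3.65 ± 0.40, adjusted p = 3.8e-06). ATP5O had 375, 219.9 and 306 at 8 cells and 3097, 3099 and 1951 at 16 cells and the complex I subunit NDUFA13 3.05, 4.09 and 7.03 at 8 cells and 555, 299 and 157 at 16 cells. The lower member was ATP5S at 54.2, 208 and 84.3 at 8 cells and 19.2, 18.1 and 21.9 at 16 cells. ATP5S was not called without 8-cell replicate 2 (adjusted p = 0.079) or in a limma fit to the 6 libraries alone (adjusted p = 0.17).

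**Figure D5:**
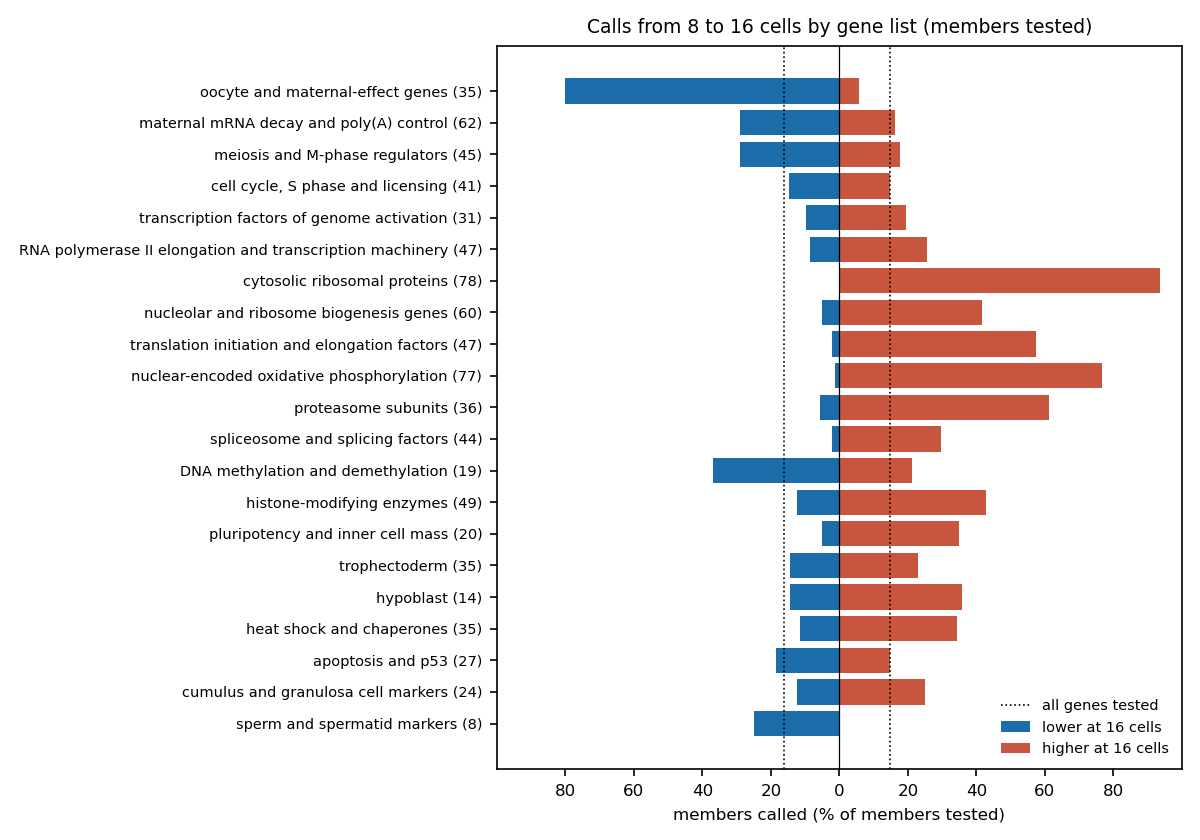
Members of each gene list called lower (bars to the left) or higher (bars to the right) at 16 cells against 8 cells, as percent of the members tested, whose number stands in brackets. Dotted lines mark the shares over all genes tested, 16.3% lower and 14.8% higher. Oocyte genes extend to 80.0% on the left, and cytosolic ribosomal proteins to 93.6% and oxidative phosphorylation to 76.6% on the right.

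Other housekeeping lists were also above the background upward. Over all genes 14.8% were higher and 16.3% lower. Of 47 translation factors 27 were higher (57.4%) and 1 lower (2.13%), with a median difference of 1.10. Of 60 nucleolar and ribosome biogenesis genes 25 were higher (41.7%) and 3 lower (5%), with a median of 1.05. Without 8-cell replicate 2 and 16-cell replicate 1 these upward counts were 17 and 18, and 2 translation factors were lower. EEF1D, a subunit of the elongation factor 1 complex, had 15.3, 23.7 and 29.5 at 8 cells and 1353, 949 and 783 at 16 cells (difference 5.25 ± 0.53, adjusted p = 1.6e-06). The initiation factor EIF3I had 1018, 1009.7 and 1207 at 8 cells and 4307, 4716 and 2949 at 16 cells. EIF2S2, a subunit of the factor that brings the initiator tRNA, had 1331, 1593 and 1654 at 8 cells and 5782, 3867 and 4539 at 16 cells. NCL, the abundant nucleolar protein nucleolin, had 832, 892 and 1412 at 8 cells and 3190.5, 3594 and 3678 at 16 cells. RRP1B had 80.9, 71.9 and 107 at 8 cells and 628, 680.2 and 509 at 16 cells. UTP11L had 314, 81.8 and 327 at 8 cells and 3313, 1119 and 1554 at 16 cells. The lower members were EIF4G3 at 716, 508 and 589 at 8 cells and 25.3, 121 and 302 at 16 cells, DDX10 at 892, 1017 and 582 at 8 cells and 220.2, 206 and 443 at 16 cells, RRS1 and POLR1E. Of 36 proteasome subunits 22 were higher (61.1%) and 2 lower (5.56%), with a median of 1.42. PSMB1, a subunit of the catalytic core, had 392, 482 and 596 at 8 cells and 3426, 2591 and 2418 at 16 cells. PSMB6 had 73.3, 142 and 181 at 8 cells and 885, 1862 and 866 at 16 cells. PSMA7 had 617, 369.5 and 616 at 8 cells and 1793, 1977 and 1602 at 16 cells. The lower members were PSMD5 and PSMD11 of the regulatory particle, PSMD11 at 983, 1689 and 1155 at 8 cells and 926, 314 and 376 at 16 cells. RRS1 was not called without 8-cell replicate 1 or without 16-cell replicate 3 (adjusted p up to 0.14). POLR1E was not called without 8-cell replicate 2 or without 16-cell replicate 3 (adjusted p up to 0.1). PSMD5 was not called without both 8-cell replicate 2 and 16-cell replicate 1 (adjusted p = 0.12). In a limma fit to the 6 libraries alone RRS1, POLR1E, PSMD5 and PSMD11 were not called (adjusted p from 0.071 to 0.13).

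Splicing and transcription genes had smaller counts of rises. Of 44 splicing genes 13 were higher (29.5%, beside 14.8% of all genes) and 1 lower (2.27%, beside 16.3%), with a median of 0.73. The downward count was 2 without 16-cell replicate 1 and 0 without 8-cell replicate 2. The upward count was 8 without 8-cell replicate 2 and 4 without this library and 16-cell replicate 1. PRPF8, the large scaffold protein of the spliceosome, had 939.7, 1238 and 2684 at 8 cells and 4111, 4223 and 8478 at 16 cells (difference 1.85 ± 0.35, adjusted p = 0.00052). SF3B3 had 417, 83.4 and 1074 at 8 cells and 2311, 2418 and 2361 at 16 cells. SNRPD3, a core protein of the small nuclear ribonucleoproteins, had 566, 213 and 271 at 8 cells and 1718, 1345 and 1063 at 16 cells. Of 47 genes of the RNA polymerase II machinery 12 were higher (25.5%) and 4 lower (8.51%), with a median of 0.35. Without 8-cell replicate 2, 7 were higher, and without this library and 16-cell replicate 1, 6. CCNT1, the cyclin of the elongation kinase P-TEFb, had 2769, 1662 and 3115 at 8 cells and 7237, 7047 and 7229.6 at 16 cells (1.56 ± 0.29, adjusted p = 0.00044). The Mediator subunit MED23 had 39.7, 4.91 and 46.4 at 8 cells and 227, 254 and 741 at 16 cells. TAF4, a subunit of TFIID, was lower with 1363, 2198 and 1686 at 8 cells and 289.9, 456 and 294 at 16 cells (-2.32 ± 0.35, adjusted p = 6.2e-05). The polymerase subunit POLR2J and both subunits of TFIIF were also lower. GTF2F1 had 917, 1068 and 823 at 8 cells and 615, 384 and 203 at 16 cells. Its partner GTF2F2 had 2353, 1692 and 1473 at 8 cells and 1121, 375 and 296 at 16 cells. The call of PRPF4, the lower splicing gene, had overlapping libraries. PRPF4 was not called without 8-cell replicate 1 or 2 or without 16-cell replicate 2 or 3 (adjusted p up to 0.22). GTF2F1 was not called without 16-cell replicate 3 (adjusted p = 0.078). POLR2J was not called without 8-cell replicate 1 or without 16-cell replicate 3 (adjusted p up to 0.066). Fitted to the 6 libraries alone, limma did not call PRPF4 or GTF2F1 (adjusted p = 0.17 and 0.078).

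The largest rises were in genes that 8-cell embryos hardly had. TEAD4, a transcription factor needed for trophectoderm in the mouse, had 0 reads in the 8-cell libraries and 316, 323 and 109 scaled counts at 16 cells. CYP1A1, a monooxygenase induced through the aryl hydrocarbon receptor, had 0 reads and then 51.7, 227 and 684. CLTB, a clathrin light chain, had 0 reads at 8 cells and 138, 96.7 and 244 at 16 cells. COMMD1, a factor of copper handling and protein sorting, had 0 reads at 8 cells and 160.0, 617 and 77.5 at 16 cells. CLTB and COMMD1 had been present in GV oocytes, at 41.6 ± 15.2 and 77.4 ± 44.3, and both were called lower at 8 cells than at 4 cells (adjusted p = 0.00036 and 0.011). SCARB1, a receptor for high-density lipoprotein, had 0.763, 0 and 4.22 at 8 cells and 299.6, 260.0 and 332 at 16 cells (difference 6.15 ± 0.95, adjusted p = 9e-05). CD99, a surface glycoprotein, had 0, 0 and 47.8 at 8 cells and 1276, 650.0 and 649.8 at 16 cells (6.98 ± 0.98, adjusted p = 3.4e-05). SPARC, a matricellular glycoprotein, had 1.53, 12.3 and 259 at 8 cells and 1341, 4774 and 4748 at 16 cells (6.80 ± 1.16, adjusted p = 0.0002). In all 7 genes the stages were apart, as the rule for naming them required.

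Genes on the list of DNA methylation and demethylation, not all of them enzymes, were called in both directions. Of 19 tested members 7 were lower (36.8%, beside 16.3% of all genes) and 4 higher (21.1%, beside 14.8%), with a median difference of -0.45. DNMT1, which copies methylation at replication, had 2936, 3557 and 1922 at 8 cells and 618, 1454 and 659.8 at 16 cells (difference -1.69 ± 0.32, adjusted p = 0.00045). Its partner UHRF1 had 3274, 2077 and 2375 at 8 cells and 320.0, 438 and 167 at 16 cells (-3.12 ± 0.37, adjusted p = 7.8e-06). TET2, which oxidises methylcytosine, had 3519, 2306 and 2792 at 8 cells and 574, 1028 and 938 at 16 cells (-1.78 ± 0.27, adjusted p = 8.2e-05). The glycosylase MBD4 had 3198, 3492 and 1854 at 8 cells and 579, 928 and 936 at 16 cells. The other lower members were DPPA3, described above, UHRF2 and DNMT3A, DNMT3A with overlapping libraries. TET1 had 1329.7, 984 and 4096 at 8 cells and 7856, 6578 and 11381 at 16 cells and was called higher, as were MBD1, ZFP57 and TRIM28. TRIM28, a corepressor that keeps imprints together with ZFP57, had 288, 170.1 and 298 at 8 cells and 1428, 2032 and 849 at 16 cells. ZFP57 overlapped between the stages, at 76.3, 6.54 and 401 at 8 cells and 385, 713 and 646 at 16 cells. DNMT3B had 333, 1214 and 243 at 8 cells and 529, 106 and 103 at 16 cells. TET3 had 91.6, 66.2 and 204 at 8 cells and 51.7, 87.7 and 57.6 at 16 cells, with no call. DNMT3B was called lower without 16-cell replicate 1 (adjusted p = 0.0027), without 8-cell replicate 3 (0.023) and without 8-cell replicate 2 and 16-cell replicate 1 (0.0072). The upward count was 2 without 8-cell replicate 2. UHRF2 was not called without 8-cell replicate 3 or without 16-cell replicate 2 (adjusted p up to 0.07). DNMT3A was not called without 8-cell replicate 3 or without 16-cell replicate 3 (adjusted p up to 0.061). TET1 was not called without 8-cell replicate 1 or 2 or without 16-cell replicate 3 (adjusted p up to 0.084). MBD1 was not called without 8-cell replicate 2 or without 16-cell replicate 1 (adjusted p up to 0.1). ZFP57 was not called without 8-cell replicate 1 or 2 or without 16-cell replicate 2 or 3 (adjusted p up to 0.25). Fitted to the 6 libraries alone, limma did not call UHRF2, DNMT3A, MBD1 or ZFP57 (adjusted p = 0.061, 0.21, 0.16 and 0.057).

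Among 49 histone-modifying enzymes 21 were higher (42.9%, beside 14.8% of all genes) and 6 lower (12.2%, beside 16.3%). Their median difference was 1.01, and 12 were higher without 8-cell replicate 2. HDAC1, a histone deacetylase, had 353, 104 and 832 at 8 cells and 1932, 1735 and 1987 at 16 cells (difference 2.57 ± 0.48, adjusted p = 0.00044). The demethylase KDM1A had 856, 430.0 and 1055 at 8 cells and 2164, 2588 and 3686 at 16 cells (1.90 ± 0.32, adjusted p = 0.0002). Its relative KDM1B, which the mouse oocyte needs to set imprints, moved the other way, with 709, 399.8 and 561 at 8 cells and 154, 206 and 97.4 at 16 cells (-1.86 ± 0.48, adjusted p = 0.0059). SUV39H2, a histone H3 lysine methyltransferase, had 823, 2351 and 746 at 8 cells and 167, 260.0 and 105 at 16 cells (-2.73 ± 0.51, adjusted p = 0.00045). The stages were apart in each of these genes.

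Of 35 chaperones 12 were higher (34.3%, beside 14.8% of all genes) and 4 lower (11.4%, beside 16.3%). Their median of 0.27 became -0.08 without 8-cell replicate 2 and 16-cell replicate 1, where 7 were higher. HSPA8, the constitutive HSP70, had 7420.4, 3929 and 14945 at 8 cells and 26534, 25669 and 29570.2 at 16 cells (difference 1.84 ± 0.34, adjusted p = 0.00036). CCT7 of the cytosolic chaperonin had 290.1, 199 and 298 at 8 cells and 1334, 1324 and 1409 at 16 cells. Its fellow subunit CCT6A had 74.8, 24.5 and 117 at 8 cells and 1227, 475 and 1951 at 16 cells. Of 27 genes of apoptosis and p53, 5 were lower (18.5%) and 4 higher (14.8%), close to the 16.3% and 14.8% over all genes tested, with a median of -0.35. The lower members were 4 inhibitors of cell death (BCL2L10, BCL2L1, BCL2L2 and XIAP) and APAF1, the scaffold of the apoptosome. BCL2L10 had 206, 214 and 134 at 8 cells and 0, 63.5 and 1.99 at 16 cells. BCL2L1 had 545, 458 and 97.0 at 8 cells and 63.8, 36.3 and 17.9 at 16 cells. The higher members were BID, BAD, CASP9 and CYCS, which act in the death pathway of mitochondria, BAD with overlapping libraries. BID had 38.2, 25.3 and 7.03 at 8 cells and 355, 239 and 119 at 16 cells. Without 16-cell replicate 1, 2 were higher, and without this library and 8-cell replicate 2, 1. BCL2L2 was not called without 8-cell replicate 1, 2 or 3 or without 16-cell replicate 2 or 3 (adjusted p up to 0.21). XIAP was not called without 8-cell replicate 1 or 2 or without 16-cell replicate 1, 2 or 3 (adjusted p up to 0.088). APAF1 was not called without 16-cell replicate 1 (adjusted p = 0.054). BAD was not called without both 8-cell replicate 2 and 16-cell replicate 1 (adjusted p = 0.097). CASP9 was not called without 8-cell replicate 1 or 2 or without 16-cell replicate 1 or 2 (adjusted p up to 0.17). CYCS was not called without 8-cell replicate 1 or without 16-cell replicate 1 (adjusted p up to 0.06). Fitted to the 6 libraries alone, limma did not call BCL2L2, XIAP, APAF1, CASP9 or CYCS (adjusted p from 0.12 to 0.27).

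Markers of other cell types moved with the stage in part. Of 24 tested markers of cumulus and granulosa cells, which surround the oocyte and were removed before freezing, 3 were lower (12.5%) and 6 higher (25%), beside 16.3% and 14.8% of all genes. Their median difference was 0.08, or -0.04 with library medians set equal, and 2 were higher without 8-cell replicate 2. Their summed level was 3977 to 5563 scaled counts in the 8-cell libraries and 1376 to 8521 in the 16-cell libraries. Of the markers called higher, AMH, the anti-Müllerian hormone, had 0, 0.818 and 2.81 at 8 cells and 6.02, 45.3 and 13.9 at 16 cells. Its receptor AMHR2 had 0, 0 and 2.81 at 8 cells and 2.41, 18.1 and 25.8 at 16 cells. CYP11A1, which begins steroid synthesis, had 0 in each at 8 cells and 33.7, 0 and 407 at 16 cells. Among the markers not called, FSHR, the receptor for follicle-stimulating hormone, had 0, 0 and 4.22 at 8 cells and 0, 0 and 5.96 at 16 cells. CYP19A1, the aromatase, had 16.8, 16.4 and 11.2 at 8 cells and 1.20, 18.1 and 0 at 16 cells, and FOXL2 had no read at either stage. CYP19A1 was called lower without 16-cell replicate 2 (adjusted p = 0.025). STAR and HAS2, which are also oocyte transcripts here, fell from 698 ± 201 to 185 ± 80.9 and from 1535 ± 714 to 294 ± 189. Genes of connective tissue on the list were higher in 16-cell replicates 2 and 3 than in replicate 1. LUM, a proteoglycan of connective tissue, had 0, 0 and 23.9 at 8 cells and 0, 1819.9 and 2289 at 16 cells. COL3A1, a fibrillar collagen, had 3.05, 3.27 and 0 at 8 cells and 0, 118 and 803 at 16 cells. The intermediate filament gene VIM had 1.53, 64.6 and 59.0 at 8 cells and 138, 859 and 777 at 16 cells. SPARC, named above, had its lowest 16-cell level in the same replicate 1, at 1341, 4774 and 4748 in the order of replicates, and the part of these cells in its rise was not tested. GREM1, a secreted BMP antagonist, was called lower at 26.7, 120.2 and 29.5 at 8 cells and 0, 63.5 and 0 at 16 cells. LUM was not called without 8-cell replicate 1 or 2 or without 16-cell replicate 2 or 3 (adjusted p up to 0.15). COL3A1 was not called without 8-cell replicate 1, 2 or 3 or without 16-cell replicate 2 or 3 (adjusted p up to 0.31). VIM was not called without 8-cell replicate 1 or without 16-cell replicate 2 or 3 (adjusted p up to 0.097). AMH was not called without 8-cell replicate 1 or without 16-cell replicate 2 (adjusted p up to 0.052). AMHR2 was not called without 8-cell replicate 1 or 2 or without 16-cell replicate 2 or 3 (adjusted p up to 0.15). CYP11A1 was not called without 8-cell replicate 1, 2 or 3 or without 16-cell replicate 1 or 3 (adjusted p up to 0.26). GREM1 was not called without 8-cell replicate 2 or without 16-cell replicate 1 or 3 (adjusted p up to 0.16). Of 8 tested sperm markers 2 were lower (25%) and 0 higher. The lower ones were ZPBP, at 238, 46.6 and 42.2 at 8 cells and 0, 3.02 and 1.99 at 16 cells, and LDHC, at 139, 178 and 105 at 8 cells and 12.0, 15.1 and 31.8 at 16 cells. At an unadjusted p under 0.05 limma gave 3 of the sperm markers lower and 1 higher, and voom gave 1 higher after adjustment. Without 8-cell replicate 2 and 16-cell replicate 1, 4 were lower. Their summed level was 359 to 1070.2 at 8 cells and 115 to 251 at 16 cells, and the protamines had no read at either stage. In a limma fit to the 6 libraries alone LDHC, AMH, AMHR2, LUM, COL3A1 and GREM1 were not called (adjusted p from 0.077 to 0.19).

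Genes that dropped out entirely were few. Of 11344 genes with reads in all 3 8-cell libraries, 262 had 0 reads in all 3 16-cell libraries, and 150 of these were present in GV oocytes and not raised at 8 cells while 39 were first raised at 8 cells. In the other direction 94 of 10678 genes with reads in all 16-cell libraries had 0 reads in all 8-cell libraries. The 16-cell libraries were shallower on average, so the comparison was repeated after thinning each library to the 2438473 reads of the shallowest. Then 204 genes dropped out and 124 came in, with 137 maternal and 30 first raised genes among the former.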

How the data were processed

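Libraries from 18 pools of 10 oocytes or embryos, 3 at each of 6 stages, were analysed. The authors deposited variance-stabilised, log2-like values per gene and library. Per the submitters' processing notes, CASAVA 1.6, TopHat2 2.0.3, HTSeq, DESeq and the build UMD3.1 were used. What each tool did, which annotation was used and how ambiguous reads were counted is not given in the sources used here. Inverting the transformation gave whole reads for all 390024 values within 1e-08, and these reads over the size factor of the library are the scaled counts.

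The deposited values of the 17138 genes tested were fitted with limma 3.58.1 in R 4.3.3, with the 6 stages in one model and empirical Bayes trend, and p-values were adjusted by Benjamini-Hochberg over all genes tested. Levels and counts were computed in Python 3.11.15 with pandas 2.3.3 and drawn with matplotlib 3.10.9. RefSeq entries were matched for 18745 genes, and 2564 of the 5890 genes listed by a locus number received a symbol this way.

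Genes named in the text were the 7 largest falls of each history and the 7 largest rises with a symbol, an adjusted p under 0.05, at least 50 scaled counts and no overlap. To these were added up to 3 called members with the smallest p from each of 21 gene lists, 43 further genes (1 of them, LEUTX, not matched) and genes said to be chosen after their values were seen. The members, lists and genes were chosen with earlier results of these data known. On simulated counts of 17138 genes limma called 42 of 50 genes lowered by 3 on the log2 scale, 20 of 50 lowered by 2, 30 of 50 raised by 2 and 37 of 50 raised by 3, and 4 of 16938 unchanged genes. Changed genes were drawn from those with a mean of at least 50 scaled counts, and each gene had the same spread at all stages. Changes in lower genes and the unequal spread of the real libraries were not simulated, so these rates do not carry over to the comparison. An exact permutation test of 3 against 3 pools cannot go below 0.1, so none was used. Alternatives were voom on the recovered reads, a fit to 6 libraries, pseudocounts of 1 and 8, filters on low values, other scalings, array weights, a block of replicate numbers, libraries left out, thinned reads and other limits for presence in GV oocytes.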

Additional observations from a re-analysis of the deposited data

How the results depend on the processing

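Of 182 called genes followed one by one, not all of them named above, all kept their direction under every alternative run, 116 kept the call in all of them and 66 lost it in at least 1. The losses given above concern libraries left out and the fit to the 6 libraries, and array weights and other scalings took further calls away. With voom KHDC3L, PADI6, ATP5S, PRPF4, BCL2L2, UHRF2, DNMT3A, LUM, COL3A1 and AMHR2 were not called (adjusted p from 0.057 to 0.14). The counts of lower and higher genes were 2355 and 2665 with voom on the recovered reads, where the median of all genes shifted by 0.33, and 2896 and 2210 with library medians set equal, where it shifted by -0.12. Fitted on the 6 libraries at 8 and 16 cells alone, 1313 genes were called lower and 1198 higher. It gave 1217 lower maternal genes not raised at 8 cells, 27 of those raised and 58 of those first raised at 8 cells. Array weights left 1509 higher genes. Of the genes first raised at 8 cells, 78 were lower with a mean of at least 10 scaled counts required, 228 without both 8-cell replicate 2 and 16-cell replicate 1, and 85 when the group was taken from GV, MII and 4-cell libraries alone. With presence in GV oocytes set at 50 scaled counts, 34 of the maternal genes raised at 8 cells were lower. Gene lists also changed in their counts of calls. In the fit to the 6 libraries the higher counts were 36 against 59 for oxidative phosphorylation, 12 against 21 for histone-modifying enzymes, 7 against 12 for the polymerase II machinery, 6 against 12 for chaperones, 6 against 10 for decay and poly(A) control, 1 against 8 for meiosis and 1 against 6 for cumulus markers. The lower counts there were 7 against 13 for meiosis, 3 against 6 for S phase, 2 against 6 for histone-modifying enzymes and 2 against 5 for apoptosis. With array weights the higher counts were 16 against 27 for translation factors, 10 against 21 for histone-modifying enzymes, 8 against 13 for splicing, 6 against 12 for chaperones and 2 against 8 for meiosis. With library medians set equal they were 6 against 12 for chaperones and 4 against 8 for meiosis. The cause of these changes was not tested, except that smaller fits and shorter gene lists leave fewer genes or samples by construction.

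With 1 library left out at a time, 2389 to 2754 genes were lower and 1756 to 2772 higher. Lower maternal genes not raised at 8 cells numbered 2032 to 2485, those raised 38 to 62, and lower genes first raised at 8 cells 122 to 221, the last without 8-cell replicate 2. With the replicate number as a block (replicate block), 2909 genes were lower and 2716 higher. The deviations of same-numbered libraries correlated at 0.03, 0.05 and 0.11 over genes, so the numbers were not taken to pair the pools. In each library 1 read was worth between 0.763 and 3.02 scaled counts, and falls of genes near this level could not be seen.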

Other observations

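Some gene families, chosen after their values were seen, are given with no test. Over all genes tested 16.3% were lower and 14.8% higher. Among 294 tested genes with a symbol beginning with ZNF, which encode zinc finger proteins, 62 were lower at 16 cells (21.1%) and 21 higher (7.14%). Of 8 NLRP genes, a family rich in oocyte members, 5 were lower (62.5%) and 0 higher by limma, also with no upward difference at an unadjusted p under 0.05. Of 46 USP genes, which encode deubiquitinating enzymes, 15 were lower (32.6%) and 7 higher (15.2%). Of 35 FBXO genes, adaptors of ubiquitin ligases, 9 were lower (25.7%) and 1 higher (2.86%). Of 301 solute carrier genes 42 were lower and 36 higher, and of 33 kinesin genes 7 were lower and 4 higher. Genes without a symbol, 2033 of those tested, had 231 lower (11.4%) and 256 higher (12.6%).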
